A study of Mus musculus with 6 samples.

Results

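The 10 genes described here are the insulin-like growth factors and the genes that act around them: the ligands Igf1 and Igf2, the long non-coding RNA H19, the receptors Igf1r, Igf2r and Insr, the receptor substrates Irs1 and Irs2, and the RNA-binding proteins Igf2bp2 and Igf2bp3. They were taken by name from a table of 43346 genes, and all 10 were found and passed the filter on low counts, as did 18757 genes in all. RNA-seq counts came from 3 radiated and 3 non-radiated femurs of C57BL/6 mice aged 4 months, a common inbred strain. The right femur had received focal X-rays, 24 Gy in a single dose at 6.6 Gy per minute, aimed at 5 mm of the distal metaphysis, the marrow-rich end of the shaft beside the growth plate. The left femur was the control and got no beam of its own, but it came from an animal whose other leg was radiated, so effects on the whole animal are shared by both groups. Bone with its marrow was taken on day 21 after muscle had been cut away, ahead of a bone loss seen at day 28.

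The genes were chosen by name with earlier results of the same comparison known, so the counts of these 6 libraries are the values they were selected on. Their levels and fold changes in it are therefore a description, and the p-values printed beside them, adjusted by Benjamini-Hochberg over all 18757 genes, are no independent evidence. The labels do not say whether each library came from a separate mouse, so these p-values measure the spread between these samples. Nor do the labels say whether libraries with the same number share a mouse. Pairs and counterparts below are libraries that share a number. In bulk bone, fewer cells of a type and less RNA per cell cannot be told apart.

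Igf1 and Igf2 are secreted growth factors that act through the tyrosine kinase receptor encoded by Igf1r. Igf1 is made by the liver and, within bone, by osteoblasts, stromal cells and macrophages, and it drives growth and bone formation. Igf2 is a fetal growth factor whose expression falls after birth. H19 and Igf2 are neighbours on mouse chromosome 7 and are imprinted, H19 being expressed from the maternal and Igf2 from the paternal copy. H19 is the precursor of the microRNA miR-675 and in the adult is best known from skeletal muscle.

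A microRNA is encoded inside each gene of this imprinted pair, and the 4 mature forms are shown because they identify what each gene of the pair carries beside its own product. Sequences are from RefSeq, build GRCm38.p6, both genes lying on the minus strand. Capitals mark the seed, bases 2 to 8 from the 5′ end, which pairs with target RNAs. No other mature mouse microRNA in the table of sequences shared any of the 4 seeds.
mmu-miR-675-5p: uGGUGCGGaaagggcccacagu
mmu-miR-675-3p: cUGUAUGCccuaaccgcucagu
mmu-miR-483-5p: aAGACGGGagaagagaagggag
mmu-miR-483-3p: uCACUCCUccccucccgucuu
The miR-675 hairpin lies within an H19 exon at chr7:142577064-142577147 and miR-483 within an Igf2 intron at chr7:142654924-142654996. The libraries were made from mRNA, so mature microRNAs were not measured. Counts assigned to the hairpin of miR-675 were 0, 1 and 6 in non-radiated femurs 1, 2 and 3, and 7, 25 and 4 in radiated libraries 1, 2 and 3, too few to test. The hairpin of miR-483 had 1 count in radiated library 3 and 0 in the others.

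The libraries held 34034251 to 48708383 gene counts. In non-radiated library 2 a single row, AY036118, took 32.9% of the counts, against at most 5.61% in the others, which left its other genes with less depth. Bone markers were abundant, with 2984 to 6185 CPM of Col1a1, the main bone collagen. CPM is a gene's count set against the size of its library, here scaled between libraries by the trimmed mean of M-values (TMM). Skeletal muscle RNA was also present and uneven. The 24 muscle fibre genes summed to 617, 940 and 502 CPM in non-radiated femurs 1, 2 and 3, and to 2112, 6605 and 668 CPM in their radiated counterparts 1, 2 and 3. All 24 fibre genes were detected. They made up 0.0661%, 0.0678% and 0.0519% of all counts in non-radiated libraries 1, 2 and 3. In radiated libraries 1, 2 and 3 the share was 0.223%, 0.724% and 0.072%. This share, as log2, is the muscle covariate used below. It was higher in each radiated library than in any non-radiated one, so a fit with it cannot fully separate muscle from group. The median log2 fold change of the 24 genes was 2.25, and 1 of them passed edgeR's test at an adjusted p under 0.05. That is 4.17% of them, beside 7.80% of all genes tested. Without radiated library 2 the median was 0.96. Without radiated library 3, 18 of the 24 passed, beside 7.11% of all genes. When any other library was left out 0 to 2 passed, beside 3.99% to 7.25% of all genes. Of 14 genes of muscle precursors and young fibres 11 had too few counts to test, with at most 8 counts of Pax7, 10 of Myod1 and 1 of Myog in any library and 0 of Mymx. Myf6 and Myh3 reached 83 and 61 counts in radiated library 2. Of the 3 tested, Megf10 rose and Cdh15 fell, calls lost with the muscle covariate and, for Megf10, without radiated library 1. Des, the third, was at 2.20 (adjusted p 0.104 by edgeR), and was called with the replicate block (0.0184) and without radiated library 3.

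Of the 10 genes, 4 had a Benjamini-Hochberg p under 0.05 with edgeR's quasi-likelihood test and are named called in what follows. All 4, Igf2, Igf2bp3, Irs1 and Igf1, rose in radiated femur, and 0 fell. Among all genes tested 7.80% were called, 4.56% higher and 3.24% lower. At an unadjusted p under 0.05 there were 8 of the 10, against 21.5% of all genes. The radiated and non-radiated values did not overlap for 8 members, 6 higher and 2 lower, against 25.9% of all genes tested. Nothing is read from these shares, since the members were listed with the comparison known. The median log2 fold change of the 10 was 0.48, and that of all genes tested was 0.00.

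**Figure D1:**
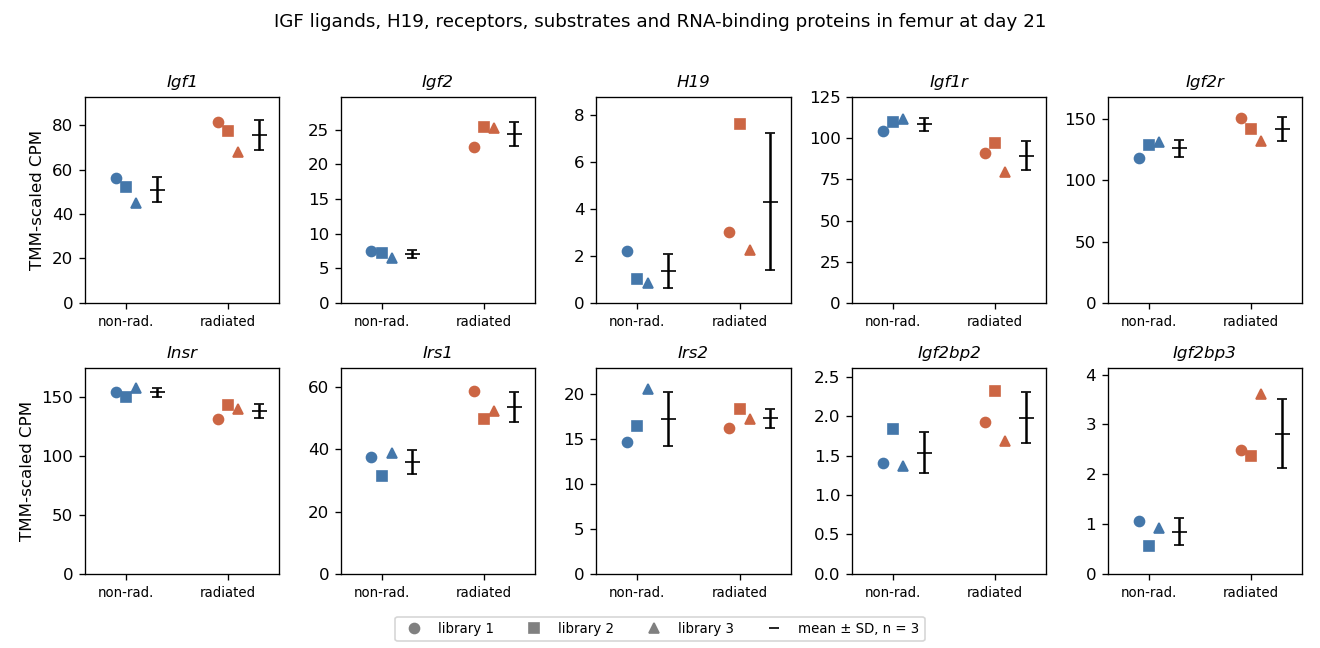
TMM-scaled CPM of the 10 genes in each library (points, with the shape giving the library number) and the mean ± SD of each group (n = 3). The 3 radiated libraries lie above all non-radiated ones for Igf1, Igf2, H19, Igf2r, Irs1 and Igf2bp3 and below them for Igf1r and Insr, and the groups overlap for Irs2 and Igf2bp2.

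Igf2 rose 3.46-fold. This gene (ENSMUSG00000048583, chromosome 7, 142650766 to 142666816, minus strand) stood at 7.49, 7.27 and 6.47 CPM in non-radiated femurs 1, 2 and 3, and at 22.4, 25.4 and 25.3 CPM in their radiated counterparts 1, 2 and 3. The values fell into separate, narrow bands, with no radiated library below 22.4 CPM. The means were 7.07 ± 0.538 and 24.4 ± 1.69 CPM (SD, n = 3 each), a log2 difference of 1.79 (SE 0.09, adjusted p 1.43e-05 by edgeR), and the call was made in all 15 alternative analyses. Within the pairs of femurs that share a number the ratio was 2.999, 3.50 and 3.91. Its antisense transcript Igf2os, which overlaps an Igf2 exon, had 1, 1 and 4 counts in non-radiated femurs, and 7, 9 and 8 counts in radiated femurs, few beside the 182 to 1359 counts of Igf2 in a library.

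Igf1 also rose. It (ENSMUSG00000020053, chromosome 10, 87858265 to 87937042, plus strand) was at 56.2, 51.9 and 44.8 CPM in non-radiated femurs 1, 2 and 3, and at 81.5, 77.4 and 68.1 CPM in their radiated counterparts 1, 2 and 3. No radiated value came within the non-radiated range. The means were 51.0 ± 5.77 and 75.7 ± 6.85 CPM (SD, n = 3 each), log2 difference 0.57 (SE 0.09, adjusted p 0.00669 by edgeR). The ratio within numbered pairs was nearly constant, at 1.45, 1.49 and 1.52. With the muscle share of each library as a covariate the log2 difference was 0.45 and the call was lost (adjusted p 0.0776), where 4.07% of all genes were called.

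The ligands were also set against each other. Per kilobase of gene length, the Igf1 level was 4.34, 4.13 and 4.01 times that of Igf2 in non-radiated femurs, and 2.10, 1.76 and 1.56 times in radiated femurs. The ranges of this ratio did not overlap between groups. Igf1 was the more abundant ligand RNA in each of the 6 libraries.

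H19, the non-coding RNA (ENSMUSG00000000031, chromosome 7, 142575529 to 142578143, minus strand), was at 2.19, 1.04 and 0.850 CPM in non-radiated femurs 1, 2 and 3, and at 3.04, 7.64 and 2.24 CPM in their radiated counterparts 1, 2 and 3. The groups did not overlap, but radiated library 3 exceeded non-radiated library 1 by little and radiated library 2 stood far above the rest. Its log2 difference was 1.66 (SE 0.49) and was not called (adjusted p 0.0777 by edgeR). Without radiated library 2 it was 0.94, and without radiated library 3 it was 1.97 and called (adjusted p 0.0331 by edgeR). With the replicate number as a block, which compares femurs that share a number, H19 was called at a log2 difference of 1.51 (adjusted p 0.0411 by edgeR, with 8.90% of all genes called).

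Muscle RNA moved with H19 in part of the libraries. The radiated over non-radiated ratio of H19 was 1.38, 7.36 and 2.64 in pairs 1, 2 and 3, and that of the summed muscle fibre genes was 3.42, 7.03 and 1.33. Both were highest in pair 2. In pair 3 the fibre genes differed little while H19 differed 2.64-fold, and in pair 1 the fibre genes differed 3.42-fold while H19 differed 1.38-fold. With the muscle share as a covariate, which itself separated the groups, the log2 fold change of H19 was 0.42 (SE 0.40, adjusted p 0.709 by edgeR). That of Igf2 was 1.77 in the same fit (adjusted p 9.08e-05 by edgeR).

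**Figure D2:**
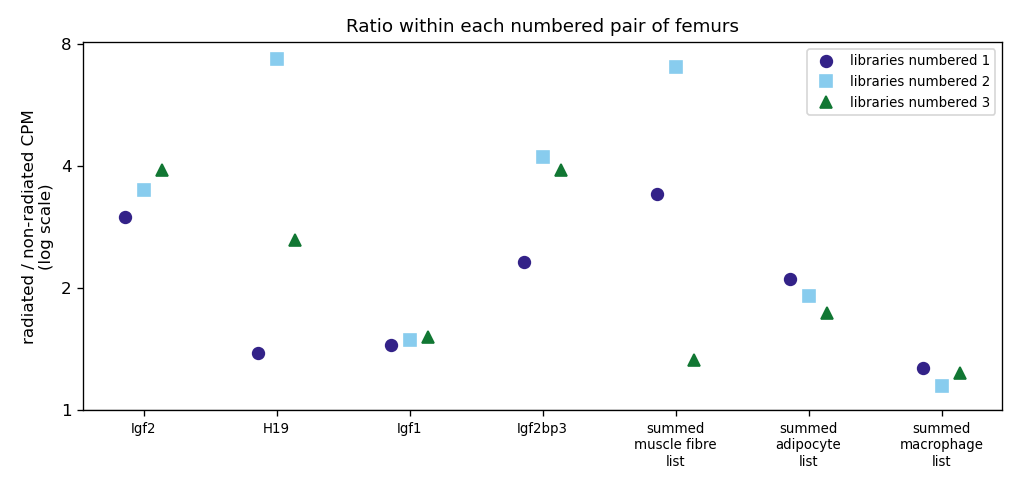
Radiated over non-radiated ratio of CPM (log axis) within each pair of libraries that share a number, for 4 genes and for the summed CPM of 3 marker lists. Igf1 and Igf2 hold to narrow ranges (1.45 to 1.52 and 2.999 to 3.91), while H19 and the muscle fibre list reach 7.36 and 7.03 in pair 2.

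Within 200 kb of H19 or Igf2 the table holds 19 genes, of which 8 had a mean of at least 1 CPM. Beside Igf2, Ctsd was called. It encodes a lysosomal protease, has its centre at -197.2 kb from that of H19, and rose at a log2 difference of 0.41 (adjusted p 0.0134 by edgeR), a call lost with the muscle covariate, under library totals alone and without radiated library 1 or non-radiated library 1 (adjusted p up to 0.174).

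On the H19 side lie Tnnt3 and Tnni2, troponins of fast muscle fibre. Tnnt3 was at 20.5, 39.8 and 16.3 CPM in non-radiated femurs, and 72.7, 249 and 20.3 CPM in their radiated counterparts 1, 2 and 3, a pattern with radiated library 2 on top and radiated library 3 within the control range. Tnni2 had the same order of radiated libraries, at 35.1, 122 and 9.86 CPM. Neither was called (adjusted p 0.116 and 0.103 by edgeR), and both were called with the replicate block (0.0213 and 0.0350).

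Lsp1, a leukocyte gene between the troponins, and Mrpl23, a mitochondrial ribosome gene between Tnnt3 and H19, had log2 fold changes of -0.06 and 0.01 and were not called (adjusted p 0.811 and 0.988 by edgeR). Syt8 was at 0.26 (adjusted p 0.745 by edgeR). The non-coding gene Nctc1, named after its values were seen, lies at -25.2 kb from H19 and had 9, 4 and 8 counts in non-radiated femurs, and 18, 172 and 10 counts in radiated libraries 1, 2 and 3. Its highest count was in the library with the highest H19. The insulin gene Ins2, on the far side of Igf2, had 0 counts in each library.

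**Figure D3:**
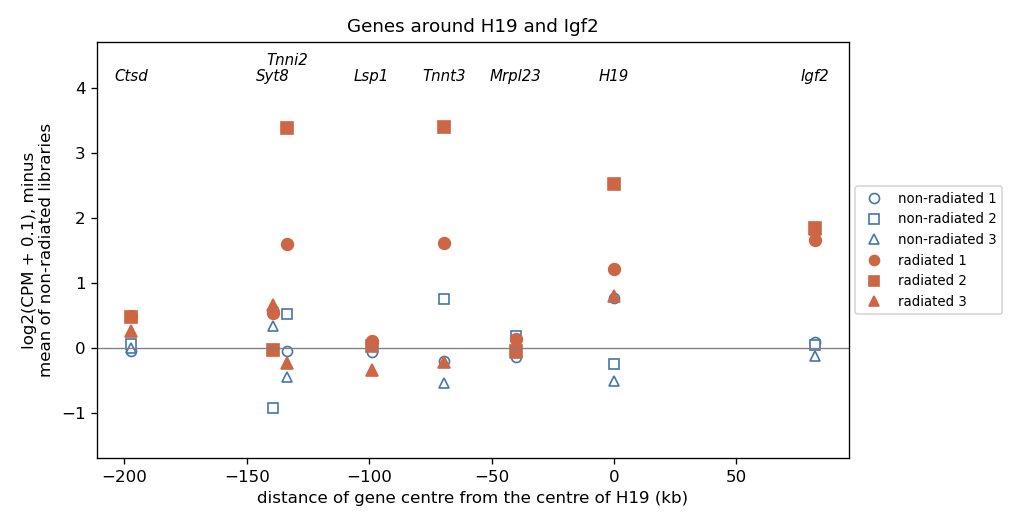
Log2(CPM + 0.1) of each library minus the mean of the non-radiated libraries, for the 8 genes near H19 and Igf2 with a mean of at least 1 CPM, by distance of the gene's centre from that of H19. Radiated library 2 (filled squares) is highest at Tnni2, Tnnt3 and H19, whereas the 3 radiated libraries sit together at Igf2.

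Next in role are the receptors. Igf1r encodes the signalling receptor for both ligands, Insr the insulin receptor, which also binds Igf2, and Igf2r a receptor that clears Igf2 by carrying it to lysosomes. Igf2r is itself imprinted.

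Igf1r (ENSMUSG00000005533, chromosome 7, 67952859 to 68226780, plus strand) was at 104, 110 and 111 CPM in non-radiated femurs 1, 2 and 3, and at 90.8, 97.1 and 79.7 CPM in their radiated counterparts 1, 2 and 3. Each radiated value was under each non-radiated one. Its log2 difference was -0.28 (SE 0.07, adjusted p 0.0503 by edgeR), just outside the threshold. Igf1r was called with the replicate block at a log2 difference of -0.29 (adjusted p 0.0487 by edgeR) and, without radiated library 2, at -0.35 (adjusted p 0.0270 by edgeR). It was called in 6 of the 15 alternatives in all, over which its adjusted p ran from 0.00590 to 0.855.

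Insr (ENSMUSG00000005534, chromosome 8, 3150922 to 3279617, minus strand) was at 154, 150 and 157 CPM in non-radiated femurs, and at 131, 143 and 140 CPM in their radiated counterparts 1, 2 and 3. The groups did not overlap, the log2 difference was -0.16 (SE 0.05) and the gene was not called (adjusted p 0.1205 by edgeR). Under scaling by library totals alone, where AY036118 enters the scaling and the median of all genes is 0.19, its log2 fold change was 0.03.

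Igf2r (ENSMUSG00000023830, chromosome 17, 12682406 to 12769664, minus strand) was at 118, 128 and 131 CPM in non-radiated femurs, and at 151, 142 and 132 CPM in their radiated counterparts 1, 2 and 3. Radiated library 3 lay just above non-radiated library 3. Its log2 difference was 0.17 (SE 0.07, adjusted p 0.171 by edgeR). Its antisense imprinting regulator Airn, which overlaps it without sharing an exon, had a log2 difference of 0.15 (adjusted p 0.433 by edgeR).

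Igf2r was also set against Igf1r. Per kilobase, Igf2r stood at 0.540, 0.557 and 0.561 times Igf1r in non-radiated femurs, and at 0.791, 0.697 and 0.787 times in radiated femurs. These ranges did not overlap. A ratio between genes of one library does not depend on how libraries are scaled, but its size depends on the gene lengths. With exon lengths of the GENCODE M21 annotation, which are longer for Igf1r, Igf2r stood at 2.05 to 2.13 times Igf1r in non-radiated and at 2.64 to 3 times in radiated femurs. The counts belong to the table's own gene models. If reads in exons outside those models were not counted, the longer length understates Igf1r. Which of Igf1r and Igf2r is the more abundant is therefore not settled.

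The substrates dock to the activated receptors and pass the signal to PI3 kinase. Irs1 (ENSMUSG00000055980, chromosome 1, 82233101 to 82291416, minus strand) was at 37.6, 31.5 and 38.7 CPM in non-radiated femurs, and at 58.8, 49.8 and 52.2 CPM in their radiated counterparts 1, 2 and 3. It rose, with no overlap, at a log2 difference of 0.57 (SE 0.09, adjusted p 0.00625 by edgeR), and kept its call in all 15 alternatives.

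Irs2 (ENSMUSG00000038894, chromosome 8, 10986980 to 11008458, minus strand) was at 14.6, 16.4 and 20.5 CPM in non-radiated femurs, and at 16.2, 18.3 and 17.2 CPM in radiated femurs. The groups overlapped fully, at a log2 difference of 0.01 (SE 0.12, adjusted p 0.987 by edgeR). Non-radiated library 3 held the highest Irs2 value of the 6. Per kilobase, Irs1 was at 1.13, 0.845 and 0.832 times Irs2 in non-radiated femurs, and at 1.60, 1.20 and 1.34 times in radiated femurs, without overlap. With GENCODE M21 lengths, longer for Irs2, these ratios were 1.31 to 1.78 and 1.88 to 2.51, above 1 in all 6 libraries. The longer length may understate Irs2 as described for Igf1r, so the order in non-radiated femurs is not settled.

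The insulin-like growth factor 2 mRNA-binding proteins are named for their binding to Igf2 transcripts, and Igf2bp3 is mainly a fetal protein. Igf2bp3 (ENSMUSG00000029814, chromosome 6, 49085221 to 49214954, minus strand) was at 1.07, 0.559 and 0.920 CPM in non-radiated femurs, and at 2.48, 2.36 and 3.61 CPM in their radiated counterparts 1, 2 and 3. The lowest radiated value was over the highest non-radiated one. It rose at a log2 difference of 1.70 (SE 0.26, adjusted p 0.00500 by edgeR), or 3.24-fold, on 39, 14 and 39 counts against 94, 126 and 161. It was called in the 15 alternatives, and at 2.03 with the muscle covariate (adjusted p 0.00407 by edgeR). The end of Igf2bp3 overlaps an exon of Malsu1 on the other strand, and whether strand was used in counting is not given in the sources used here.

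Igf2bp2 (ENSMUSG00000033581, chromosome 16, 22059009 to 22163299, minus strand) was at 1.40, 1.84 and 1.37 CPM in non-radiated femurs, and at 1.93, 2.32 and 1.68 CPM in their radiated counterparts 1, 2 and 3. The groups overlapped, and the log2 fold change of 0.38 (SE 0.20) was not called (adjusted p 0.319 by edgeR). Within the numbered pairs each radiated library was above its partner, by 1.38-, 1.26- and 1.23-fold. The related Igf2bp1 had 2 counts in radiated library 3 and 0 in the others.

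**Figure D4:**
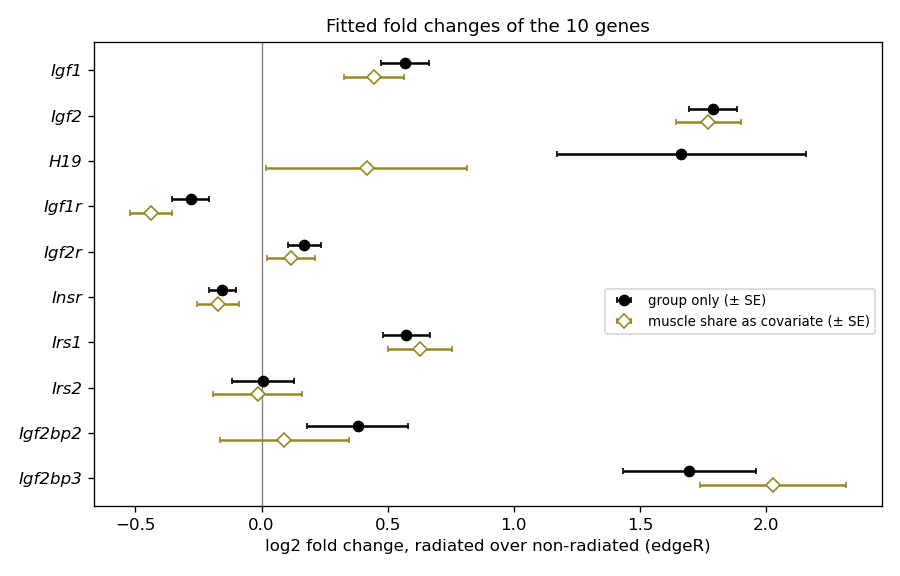
Log2 fold change (± SE) of the 10 genes from edgeR, with the group as the only term (filled circles) and with the muscle share of each library as a covariate (open diamonds). Igf2 is at 1.79 and 1.77 in the fits and Igf2bp3 at 1.70 and 2.03, while H19 goes from 1.66 to 0.42.

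Levels between genes were compared per kilobase of the length given in the table, on the scale of TMM-scaled CPM per kilobase. In non-radiated femur the order was Igf1r (24.1 ± 0.841), Insr (15.9 ± 0.380), Igf2r (13.3 ± 0.727), Igf1 (5.15 ± 0.582), Irs2 (4.26 ± 0.750), Irs1 (3.93 ± 0.424), Igf2 (1.24 ± 0.0940), H19 (0.574 ± 0.307), Igf2bp2 (0.215 ± 0.0367) and Igf2bp3 (0.196 ± 0.0604; SD, n = 3 for each). The receptors were thus the most abundant and the RNA-binding proteins the least. The ranges of neighbours overlapped for Igf1 and Irs2, Irs2 and Irs1, and Igf2bp2 and Igf2bp3.

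In radiated femur Igf2, at 4.26 ± 0.295, was next to Irs2, at 4.29 ± 0.258, and their ranges overlapped, as did those of Igf2r and Insr, which changed places. Igf2bp3, at 0.648 ± 0.158, was above Igf2bp2, at 0.277 ± 0.0454, and Irs1 above Irs2, each without overlap. The order depends on gene length in both groups. The table gives Igf1r 4489 and Irs2 4024 bases, whereas exons of the GENCODE M21 annotation cover 16791 and 6323.

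With the annotation's lengths 6 of the 10 genes kept their place in non-radiated femur. Genes given a longer length here are understated if reads outside the table's gene models were not counted, so neither order is settled. There Igf1r, at 6.46, came after Igf2r (13.5) and Insr (11.2), and Irs1 (3.93) came before Irs2 (2.71). In radiated femur 3 of the 10 kept their place. Igf1r, at 5.31, came after Igf1 (7.64) and Irs1 (5.87), Igf2 (4.26) was no longer level with Irs2 (2.73), and the ranges of Igf2bp3 and Igf2bp2 overlapped.

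Other genes of the pathway were taken from lists. Upstream of Igf1 stands growth hormone, which acts through its receptor, Jak2 and Stat5. Of 11 genes tested in this list, 1 rose and 1 fell, or 18.2% beside 7.80% of all genes, with a median of 0.10. Ghr, the growth hormone receptor, was at 26.0, 22.7 and 20.9 CPM in non-radiated femurs, and at 46.8, 47.8 and 39.2 CPM in radiated femurs. The radiated libraries were all well above the others, at a log2 difference of 0.94 (SE 0.10, adjusted p 0.000846 by edgeR), called in the 15 alternatives. Jak2, the receptor's kinase, fell at -0.33 (SE 0.05, adjusted p 0.00456 by edgeR), and was not called under library totals alone. Stat5a and Stat5b were at -0.06 and -0.04 and Socs2, a target and brake of this pathway, at 0.36, none of them called (adjusted p 0.714, 0.777 and 0.164 by edgeR).

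Binding proteins hold IGFs in the circulation and the matrix, and proteases release them. Of 11 genes tested in this list 2 rose and 1 fell, or 27.3% beside 7.80% of all genes. The median was -0.04 (0.15 under library totals alone), and with the replicate block 5 were called, beside 8.90% of all genes. Without radiated library 1 there was 1 call, and without non-radiated library 1 or 2 there were 2. In those fits 3.99%, 4.69% and 4.22% of all genes were called. Without radiated library 3 there were 5, beside 7.11% of all genes, and the median was 0.21. Pappa2, a protease that cuts IGF binding proteins, rose from 0.357, 0.559 and 0.307 CPM to 1.35, 1.18 and 1.08 CPM, at a log2 difference of 1.60 (SE 0.27, adjusted p 0.00798 by edgeR). Igfbp7 rose by 0.50 and Igfbp3, the main carrier in serum, fell by 0.63 on the log2 scale (adjusted p 0.0106 and 0.0286 by edgeR). These 3 calls were lost with the muscle covariate (adjusted p 0.0556, 0.0725 and 0.138), whereas Igfbp5, at -0.64 and not called (adjusted p 0.0673 by edgeR), was at -1.19 and called in that fit (adjusted p 0.000182). Igfbp5 was also called without radiated library 2 or 3 and with the replicate block. The call of Igfbp7 was also lost without radiated library 1, and that of Igfbp3 also under library totals alone and when radiated library 1 or non-radiated library 1 or 2 was left out.

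Downstream, most of the signalling chain from adaptors to kinases did not pass the test. Of 46 genes listed 44 were tested, 3 rose and 2 fell, or 11.4%, beside 7.80% of all genes. The median was -0.03, with 19 genes higher and 25 lower, and it was 0.17 under library totals alone, with 41 higher and 3 lower.

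Foxo1, a transcription factor that Akt keeps out of the nucleus, rose by 0.52 (SE 0.08, adjusted p 0.00384 by edgeR), from 54.8, 48.1 and 50.7 CPM to 73.7, 67.1 and 80.0 CPM. Pik3r3, a regulatory subunit of PI3 kinase, rose by 0.60 and its catalytic subunit gene Pik3cb fell by 0.30 on the log2 scale (adjusted p 0.00743 and 0.00582 by edgeR). Ptpn11, the phosphatase SHP2, fell by 0.35 (adjusted p 0.00494 by edgeR). The calls of Pik3cb and Ptpn11 were lost under library totals alone. Inppl1, a lipid phosphatase, rose by 0.31 (adjusted p 0.0392 by edgeR), but was not called in 7 of 15 alternatives, which include leaving out radiated library 1, 2 or 3 and non-radiated library 1 or 2. Akt1, Akt2 and Mtor, kinases of this chain, were at 0.09, -0.0019 and 0.21, none of them called (adjusted p 0.628, 0.990 and 0.0522 by edgeR).

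Imprinted genes other than the members were examined because H19, Igf2 and Igf2r are imprinted. Of 28 listed, with regulators of imprinting among them, 22 were tested. Of these 6 rose and 2 fell, or 36.4% beside 7.80% of all genes, with a median of 0.31 and 16 higher. The count of called genes moved between 2 and 10 over the alternatives. It was 2 with the muscle covariate, where 4.07% of all genes were called. It was 10 with the replicate block, where 8.90% of all genes were called, and in others. It was 3 without radiated library 1, radiated library 2 or non-radiated library 2, and 4 without radiated library 3 or non-radiated library 3. The share of all genes called in those fits was 3.99%, 5.99%, 4.22%, 7.11% and 7.25%, in that order.

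Peg3, a paternally expressed zinc finger gene, rose from 10.7, 5.95 and 9.75 CPM to 22.5, 16.7 and 19.6 CPM, at a log2 difference of 1.14 (SE 0.20, adjusted p 0.00824 by edgeR), called in the 15 alternatives. Nnat, a paternally expressed membrane protein gene, had 3, 1 and 0 counts in non-radiated femurs, and 51, 55 and 30 counts in radiated femurs (adjusted p 0.00216 by edgeR). Its counts in the non-radiated libraries are too low for a fold change.

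Ndn and Zfp57 rose by 1.16 and 1.22 on the log2 scale from under 1 CPM (adjusted p 0.0290 and 0.0239 by edgeR), and Peg10 and Gatm fell by 0.69 and 0.37 (adjusted p 0.0231 and 0.0201 by edgeR). Meg3 and Plagl1, the other 2 called genes, were at 1.24 and 0.57 (adjusted p 0.0398 and 0.0404 by edgeR). Each of these 6 calls was lost in 5 to 7 of the alternatives, and each with the muscle covariate. Leaving out radiated library 1 lost those of Ndn, Zfp57, Gatm, Meg3 and Plagl1, radiated library 2 those of Zfp57, Peg10, Gatm, Meg3 and Plagl1, and radiated library 3 those of Ndn, Zfp57, Peg10 and Plagl1. Leaving out non-radiated library 1 lost those of Peg10 and Gatm, non-radiated library 2 those of Ndn, Zfp57, Gatm, Meg3 and Plagl1, and non-radiated library 3 those of Ndn, Zfp57, Meg3 and Plagl1. Mest and Slc38a4 were at 0.74 and 1.17 and were called with the replicate block (adjusted p 0.0505 and 0.0518 by edgeR without it, 0.0343 and 0.0272 with it). Ctcf, which encodes the protein that binds the control region between H19 and Igf2, was at 0.00 (adjusted p 0.992 by edgeR).

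The let-7 microRNAs repress the Igf2bp genes, Lin28b and Hmga2. Of 10 genes tested in the list of these partners 0 were called with edgeR, beside 7.80% of all genes. The median was -0.05 (0.14 under library totals alone), and 2 had an unadjusted p under 0.05, beside 21.5% of all genes. Hmga1 was at 0.41 (adjusted p 0.0653 by edgeR), called with the replicate block (0.0352). Without radiated library 3, 1 gene of the list was called, as lower, beside 7.11% of all genes. Syncrip was at -0.18 (adjusted p 0.203 by edgeR). Lin28b had at most 1 count in a library.

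**Figure D5:**
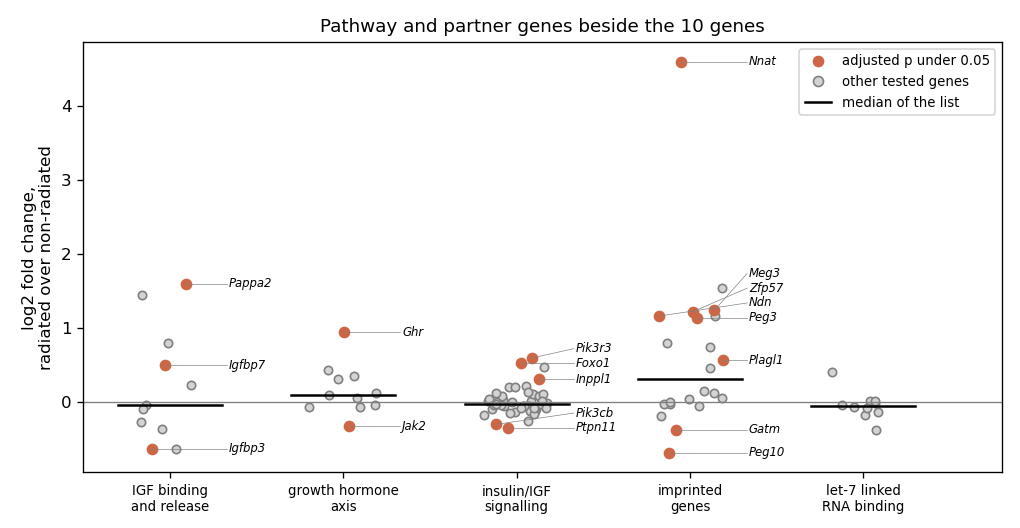
Log2 fold change of each tested gene in 5 lists (points), with called genes named and the list's median as a bar. Medians lie between -0.05 and 0.31. Nnat, with 3, 1 and 0 counts in the non-radiated libraries, is drawn at its fitted value, which is no measure of size.

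Marker genes of cells that make or receive IGFs were counted as well. In the fit with group as the only term, 4.56% of all genes tested were called higher and 3.24% lower. Of 14 adipocyte genes 11 rose, and their summed level was 293 to 322 CPM in non-radiated and 510 to 645 CPM in radiated libraries. Of 12 macrophage genes 7 rose and 1 fell, the sums being 1274 to 1437 and 1573 to 1801 CPM. All 12 megakaryocyte genes fell, from 2052 to 2100 CPM down to 780 to 886 CPM. Of 12 osteoblast genes 4 fell and 0 rose, the sums being 9007 to 13620 and 6801 to 8800 CPM. Leaving out non-radiated library 2 gave 7 osteoblast genes that fell, beside 4.22% of all genes called. Leaving out radiated library 1 gave 5, beside 3.99%, and each other library 3, beside 4.69% to 7.25%. Of 12 genes each for chondrocytes, endothelium and marrow stroma, 1, 0 and 1 rose and 0, 2 and 2 fell. Without non-radiated library 2, 4 chondrocyte genes fell. With the replicate block 8.90% of all genes were called. In that fit 8 osteoblast genes fell and 19 muscle fibre genes rose. Of 4 chondrocyte genes called there 1 rose and 3 fell, and of 3 endothelial genes 1 rose and 2 fell. With the muscle covariate, where 4.07% of all genes were called, 1 osteoblast gene fell and 8 adipocyte genes rose. Of the macrophage genes 4 rose and 1 fell in that fit. None of the markers in these lists was at 0 in every library. Their part in the values of the 10 genes was not tested, apart from the muscle covariate.

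The genes whose log2 CPM followed a member most closely over the 6 libraries, among 15579 with a mean of at least 1 CPM, were named by Pearson's r. For Igf2 these were Zmat3 (r = 0.997), Slit1 (0.994), Megf6 (0.994), Pde4b (0.993) and Ccng1 (0.992). For Igf1 they were Adgre1 (0.989, listed under its older name Emr1), Cd3d (0.989), Cyp2f2 (0.989), Epha3 (0.987) and Shisa2 (0.987). For H19 they were Sirt4 (0.993), Adamtsl1 (0.991), Acss3 (0.989), Egf (0.989) and Gm20682 (0.989). The 6 points are the libraries of the comparison itself and share its groups, so these values describe and carry no test.

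Promoter windows of Igf2 and Irs1 are shown because both genes were called higher in all 15 alternatives. Igf2bp3 was too, but its window overlaps an annotated exon and is not printed. RefSeq sequences of the 250 bases before a start were found for 8 of the 10 genes, in 11 windows, 4 of them for Igf2. Of the 4 Igf2 windows 2 overlap an annotated exon and are not printed, and the others are shown with the single window of Irs1. These counts cannot tell the 4 Igf2 starts apart. Capitals mark the GC box GGGCGG, the CCAAT box CCAAT and the TATA box TATAAA on either strand, in sequences read 5′ to 3′ on the strand of the gene (build GRCm38.p6).
Igf2, chr7:142657497-142657746, minus strand: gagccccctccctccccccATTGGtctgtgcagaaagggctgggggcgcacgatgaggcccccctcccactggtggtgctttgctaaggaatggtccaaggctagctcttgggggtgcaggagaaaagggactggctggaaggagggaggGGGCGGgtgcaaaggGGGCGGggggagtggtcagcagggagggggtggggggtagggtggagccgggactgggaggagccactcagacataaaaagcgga
Igf2, chr7:142666817-142667066, minus strand: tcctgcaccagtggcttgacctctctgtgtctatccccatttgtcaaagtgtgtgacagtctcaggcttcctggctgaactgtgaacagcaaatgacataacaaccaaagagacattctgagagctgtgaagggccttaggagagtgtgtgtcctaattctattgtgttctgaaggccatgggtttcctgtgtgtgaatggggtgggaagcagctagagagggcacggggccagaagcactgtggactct
Irs1, chr1:82291440-82291689, minus strand: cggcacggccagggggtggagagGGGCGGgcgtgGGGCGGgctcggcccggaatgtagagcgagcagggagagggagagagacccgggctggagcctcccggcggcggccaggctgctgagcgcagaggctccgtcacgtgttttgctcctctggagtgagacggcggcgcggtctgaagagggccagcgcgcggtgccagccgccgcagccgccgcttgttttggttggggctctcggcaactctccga
The Igf2 window at 142657497 holds 2 GC boxes and 1 CCAAT box, that at 142666817 holds 0 of the 3 motifs, and that of Irs1 holds 2 GC boxes. Of the Igf2 windows not printed, 1 holds a GC box and the other 0 of the motifs. Of 32851 promoter windows of this length 32.7% held a GC box, 33.8% a CCAAT box and 12.4% a TATA box. The 4 Igf2 windows were 66.0%, 68.8%, 47.6% and 50.8% G and C, from the lowest coordinate up, and that of Irs1 was 72.4%, against a median of 52.4% over all windows. A match of letters is a description and not a site.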

How the data were processed

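Each library came from the distal metaphysis of a mouse femur, with a stranded mRNA kit per the labels' protocols. The authors deposited raw counts per gene and RPKM with a column of each for every library, per the file headers. STAR 2.5.2b, featureCounts of Subread and build mm10 are named in the submitters' processing notes. The annotation release, any filter and the strand setting are not given in the sources used here. RPKM, as deposited by the authors, was used only to check the order of levels.

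The members and lists were chosen with earlier results of these data known. Lists held 236 entries, all found, 3 by gene ID. Grb10, Slc2a4 and Vcam1 are each in 2 lists. Named are the members, up to 6 called genes per list with the smallest p (2 where none was called), genes within 200 kb of H19 or Igf2 whose mean reached 1 CPM, and 5 genes most correlated with H19, Igf2 or Igf1. Igfbp5, Igfbp6, Meg3, Plagl1, Mest, Slc38a4, Stat5a, Stat5b, Socs2, Airn, Ctcf, Akt1, Akt2, Mtor, Igf2bp1, Lin28b, Igf2os, Nctc1, Ins2 and genes of the muscle precursor list were named outside that rule, after their values were seen.

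The tests used edgeR 4.0.16 (R 4.3.3) on the counts as deposited (filterByExpr, minimum count 10 and minimum total 15; TMM; glmQLFit and glmQLFTest with group as the only term), and p-values were adjusted by Benjamini-Hochberg. The SE was taken as the log2 fold change over the root of its F statistic. The fit was also run on simulated counts with known changes. These had the same dispersion for all genes and neither pairing nor uneven muscle RNA, so that run does not bear on such features here. Replicates of a group differed by far more than counting noise (chi-square per degree of freedom 17.8 to 631). The values 533 and 631 belong to the pairs with non-radiated library 2, and the row AY036118 was not left out of them. Libraries with the same number deviated together from their group means (correlation across genes 0.166, 0.277 and 0.187, and -0.170 to -0.00824 for different numbers). A replicate block was therefore an alternative. That these libraries share a mouse is not stated in the labels, and the correlations do not show what they share. The 14 others were limma-voom (limma 3.58.1), DESeq2's Wald test (DESeq2 1.42.0) and its size factors, library totals alone, library totals without AY036118, no filter, a filter at a mean of 1 CPM, the log2 muscle share as a covariate, and leaving out each library. Sequences are from RefSeq tables. Of the gene IDs 98.0% were in GENCODE M21 (GRCm38, the assembly of mm10), 78.9% of those with the same start and end.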

Additional observations from a re-analysis of the deposited data

How the results depend on the processing

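All 15 alternatives gave 4 to 6 called members, where 3.99% to 10.3% of all genes were called. Of 150 member values, 132 kept their direction and side of the threshold. Reversed values were those of Insr under library totals alone (0.0328) and of Irs2 with DESeq2 size factors (-0.0024), DESeq2's Wald test (-0.0030), the muscle covariate (-0.0148) and leaving out radiated library 2 (-0.04) or non-radiated library 1 (-0.10) or 2 (-0.04), where leaving out libraries gave -0.10 to 0.15. The replicate block added the calls of H19 and Igf1r, Igfbp5, Igfbp6, Hmga1, Mest, Slc38a4, Tnni2, Tnnt3 and Des among genes named here, and took none from the members. Which member had the highest log2 fold change also moved. Igf2bp3 was highest, with Igf2 next, with the muscle covariate (2.03 against 1.77). The same held without radiated library 2 (1.81 against 1.76) or non-radiated library 3 (1.74 against 1.72). H19 was highest without radiated library 1 (1.86 against 1.84 for Igf2) or 3 (1.97 against 1.76). Without non-radiated library 1, H19 was again highest (2.21 against 1.83 for Igf2). Over all genes the count of called genes, 1463 (58.5% higher), was 763 with the muscle covariate and 764 to 1376 with 1 library left out (764 without radiated library 1, 905 without non-radiated library 1, 819 without non-radiated library 2). Library totals alone gave 1000, 85.4% of them higher. The H19 call under that scaling came with infinite prior degrees of freedom, so the spread came from the trend over genes. Called genes of the signalling list were 2 under library totals alone, and 4 to 6 with 1 library left out. Of the imprinted list 5 were called at a mean of at least 1 CPM, 2 with the muscle covariate, and 3 to 7 with 1 library left out. With exon lengths of GENCODE M21, chosen after seeing the data, 6 of 10 genes kept their place in the order of levels in non-radiated and 3 of 10 in radiated femur. Counts of 14 to 161 limit Igf2bp3 and 26 to 408 limit H19.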
